A study of Arabidopsis thaliana with 4 samples.

Results

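The evening circadian clock genes are 10 genes chosen by their locus identifiers, not by how they behaved in these data, out of the 32833 genes listed in the count files. They are the pseudo-response regulator genes *PRR5* (AT5G24470), *PRR3* (AT5G60100) and *TOC1* (AT5G61380), the gene *GI* (AT1G22770), the evening complex genes *ELF3* (AT2G25930), *ELF4* (AT2G40080), *LUX* (AT3G46640) and its paralog *BOA* (AT5G59570), and the blue-light receptor genes *FKF1* (AT1G68050) and *ZTL* (AT5G57360). RNA was sequenced from whole 14-day *Arabidopsis thaliana* seedlings of the T-DNA line *mettl4-1* (2 libraries) and of the wild type Col-0 (2 libraries). All were in the Columbia background and grown on MS medium with 16 h of light. The labels give 22 °C for them, while the study's methods give a slightly lower temperature for the seedlings used for RNA. By the labels and the study, the mutant is a single insertion line whose T-DNA sits in the first exon of *METTL4*, the gene of the methyltransferase that makes m6Am in U2 snRNA. The data of *mettl4-1* replicate 2 were deposited under the name of another *mettl4* allele, so whether that library is of the same line rests on its sample label alone. The labels do not say whether the 2 libraries of a genotype came from separate plants, so p-values measure only the spread between these libraries, which may be technical.

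The plant clock is a set of transcription factors that repress each other in turn through the day. The morning factors CCA1 and LHY bind the evening element of evening genes and hold them down after dawn, and the evening proteins in turn repress the morning genes. GI, FKF1 and ZTL work on the protein level: ZTL is an F-box protein that marks TOC1 and PRR5 for degradation, GI stabilizes ZTL, and GI with FKF1 removes repressors of *CONSTANS* in long days, which is the route from the clock to flowering.

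In *mettl4-1*, the transcripts of *PRR3* and *GI* were lower by 14.6% and 13.4% at an adjusted p under 0.05, and none of the 10 genes passed the test as higher. At the same threshold, 1.87% of all 21673 genes tested were lower and 0.960% higher. *GI* was just inside the threshold (adjusted p = 0.0494, edgeR). Neither call was kept under every omission of 1 library, while the log2 fold changes stayed negative, as given below. *TOC1*, *ELF3*, *BOA* and *FKF1* had mean levels within 1% of Col-0. All 10 genes passed the filter on low counts, with 588 to 9888 counts each in a library. The 95% interval of each of the 10 log2 fold changes excluded a 1.5-fold change in either direction.

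The time of day at which the seedlings were collected is not given in the sources used here. The growth protocol in the labels gives 8 h of darkness for every library, but the description of the source gives 10 and 11 h for the *mettl4-1* libraries and 8 and 9 h for the Col-0 libraries. These values go up by 1 h with each sample in the order of deposit. Because clock transcripts follow time and day length, a difference in either of these between the genotypes cannot be told apart from the genotype. Seedlings are a mixture of cell types, in which fewer cells of a type and less RNA per cell cannot be told apart.

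The evening element, AAAATATCT, was searched on both strands in the 1000 bases before the annotated start of each gene, and is shown here because it is the sequence that ties evening genes to the morning factors. At least 1 copy was found before 7 of the 10 genes (*PRR5*, *TOC1*, *GI*, *ELF4*, *LUX*, *BOA* and *FKF1*), against 7.24% of the 27443 nuclear protein-coding genes. In the nearest 500 bases it was found before 5 of the 10, against 4.44% of all genes. The windows below come from the RefSeq genome TAIR10.1 and read 5′ to 3′ on the strand of the gene, with the element in capitals, so that AGATATTTT is the element on the other strand. They start with the 3 copies of *GI*, 1 of the genes that fell, and go on with the copy nearest to the start of each of the genes that did not pass the test.
GI, chr1:8060922-8060970: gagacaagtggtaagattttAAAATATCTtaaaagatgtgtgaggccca
GI, chr1:8060954-8061002: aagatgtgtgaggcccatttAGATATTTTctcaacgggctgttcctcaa
GI, chr1:8061140-8061188: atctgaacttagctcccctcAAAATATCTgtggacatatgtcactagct
TOC1, chr5:24674792-24674840: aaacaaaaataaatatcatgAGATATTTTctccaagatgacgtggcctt
LUX, chr3:17182969-17183017: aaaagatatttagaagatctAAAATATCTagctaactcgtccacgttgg
BOA, chr5:24003825-24003873: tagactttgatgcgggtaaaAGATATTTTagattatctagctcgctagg
FKF1, chr1:25508433-25508481: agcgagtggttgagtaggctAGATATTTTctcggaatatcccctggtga
ELF4, minus strand, chr2:16735461-16735509: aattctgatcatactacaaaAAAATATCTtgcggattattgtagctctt
PRR5, minus strand, chr5:8358715-8358743: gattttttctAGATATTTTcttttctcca

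The copies lay 43 to 35 bases before the start of *BOA*, 53 to 45 before *LUX* and 151 to 143 before *TOC1*, whereas the 3 copies of *GI* lay between 809 and 583 bases before its start. *PRR5* has no 5′ untranslated region in this annotation, so its distances run from the start codon. *PRR3*, *ELF3* and *ZTL* held no exact copy within the 1000 bases, which says only that these letters are not in this window. The LUX-binding core, GATACG or GATTCG, was found in the same windows of *PRR3*, *TOC1*, *GI*, *ELF3*, *ELF4* and *LUX*, against 39.8% of all genes, and both matches of *PRR3* lay inside the neighbouring gene AT5G60110. The G-box CACGTG was found before *LUX* and *BOA* (14.8% of all genes) and the CCA1-binding site AAAAATCT before *PRR5* and *BOA* (21.1% of all genes).

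The mutation showed in the counts of *METTL4* (AT1G19340), which had 35 and 46 counts in the *mettl4-1* libraries and 355 and 413 in the Col-0 libraries. The libraries held 50862075 to 66003824 counts in all. Organelle genes took 2.68% and 1.03% of the counts in *mettl4-1* replicates 1 and 2, against 0.693% and 0.713% in Col-0 replicates 1 and 2, and 18S ribosomal RNA took 3.65% and 1.25% against 0.495% and 0.369%, so *mettl4-1* replicate 1 stood apart from the others. Its part in the results was measured by leaving it out. Of 21531 nuclear genes, 1499 differed between the 2 *mettl4-1* libraries beyond the sampling of counts, against 159 between the 2 Col-0 libraries (chi-squared test, adjusted p under 0.05). The cause of this wider gap was not tested. The 4 green-shoot and the 4 root markers were present in every library, and the 4 flower markers were at 0.236 to 1.02 CPM. The flower markers together summed to 2.75 and 2.66 CPM in *mettl4-1* and 2.07 and 2.09 CPM in Col-0. Both mutant libraries were above both wild-type ones for *AP1*, *AP3* and *PI* and below them for *SEP3*, and 0 of the 4 passed in edgeR or limma-voom while DESeq2 gave none an adjusted p. In edgeR, *AP1* and *PI* had unadjusted p-values of 0.0168 and 0.00696 at log2 fold changes of 0.84 and 0.82, past the thresholds of the study's methods. Past those thresholds were 2 of the 4 flower markers in limma-voom and 0 in DESeq2, the tool of the study. In DESeq2, 0 of the 4 had an unadjusted p under 0.05. Of 6 seed markers, 5 were lower in *mettl4-1*, with *SESA3* and *CRU2* at 0 counts there and at 7.31 to 9.91 CPM in Col-0, and the 6 together summed to 2.83 and 2.37 CPM in *mettl4-1* and 45.7 and 45.0 CPM in Col-0. Of the 4 green-shoot markers, 3 were lower (*RBCS1A*, *RCA* and *CAB1*), with log2 fold changes of −0.15, −0.07 and −0.53, and the 4 together summed to 19213 and 20195 CPM in *mettl4-1* and 21855 and 21734 CPM in Col-0. Of the 4 root markers, *PYK10* was higher (log2 fold change 0.07). The part of these marker differences in the clock results was not tested.

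Levels are given as CPM, counts scaled to a library of 1000000 counts after TMM normalization. Compared per kilobase of annotated exon, *ELF4* had the highest level of the 10 genes, with a mean of 88.0 CPM per kb over the 4 libraries, followed by *TOC1* (53.7), *ELF3* (46.4) and *ZTL* (27.4). *FKF1* (12.1), *PRR5* (11.4), *LUX* (11.1) and *PRR3* (10.3) lay close together, and *GI* (5.20) and *BOA* (3.16) were lowest. Along this order, *PRR5* overlapped *LUX* and *LUX* overlapped *PRR3* in the range of their libraries, and no other neighbours did. The low places of *LUX* and *BOA* depended on the length used, as both have long annotated exons outside their coding sequence. When the same counts of the whole gene were divided by coding length alone, *LUX* had 40.6 CPM per kb and took place 4. *BOA* had 12.9 and took place 8, and *PRR5*, with 11.4, moved from place 6 to 9. Reads outside the coding sequence are still in these values, so they are not levels of the coding sequence. *GI* was then the lowest, with 6.36. The morning gene *CCA1* lay below all 10, with 0.937 CPM per kb of exon in *mettl4-1* and 0.853 in Col-0.

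**Figure D1:**
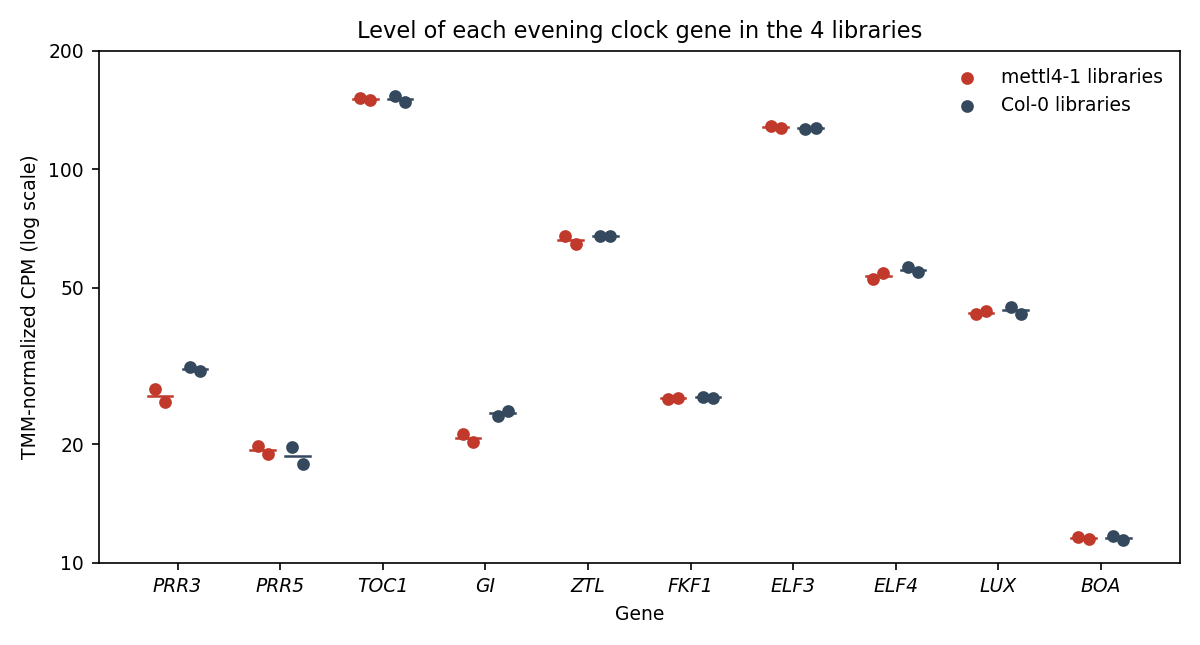
TMM-normalized CPM on a log scale for each of the 10 evening clock genes, with 1 point per library (*mettl4-1* left, Col-0 right) and a short line at the mean of the 2 libraries. Both *mettl4-1* points lie below both Col-0 points for *PRR3*, *GI* and *ELF4*, and for the other 7 genes the libraries of the genotypes overlap.

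*PRR3*, a pseudo-response regulator that binds TOC1 and shields it from ZTL, had 27.6 and 25.6 CPM in the *mettl4-1* libraries, against 31.4 and 30.8 CPM in the Col-0 libraries. Both mutant libraries were below both wild-type libraries, and in the 4 ways to set a mutant library against a wild-type one its level was 81.3% to 89.5% of the wild type. The mean was 26.6 ± 1.42 CPM in *mettl4-1* and 31.1 ± 0.457 CPM in Col-0 (SD, n = 2 each). This was a log2 fold change of −0.23 (standard error 0.05, 95% interval −0.33 to −0.12, adjusted p = 0.0303, edgeR quasi-likelihood test, Benjamini-Hochberg over all genes tested).

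*PRR3* lies on chromosome 5 from 24197971 to 24201415 on the minus strand of TAIR10.1 and has 8 exon blocks over 7 annotated transcripts. Counts of whole genes do not show which of these transcripts were lower. Among the 5 tested genes on each side of it, log2 fold changes lay between −0.23 and 0.52, and 0 of these 10 neighbours passed the test in edgeR, 0 had an unadjusted p under 0.05, and 0 passed in DESeq2 or limma-voom.

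*GI*, a large plant-specific protein that links the clock to flowering through ZTL and FKF1, had 21.3 and 20.3 CPM in *mettl4-1*, against 23.7 and 24.3 CPM in Col-0. Again the groups did not overlap, and the library pairs gave 83.4% to 89.9% of the wild type. The mean was 20.8 ± 0.679 CPM in *mettl4-1* and 24.0 ± 0.481 CPM in Col-0 (SD, n = 2 each). The log2 fold change was −0.21 (standard error 0.05, 95% interval −0.32 to −0.10, adjusted p = 0.0494 from the same edgeR test), which is just inside the threshold.

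*GI* lies on chromosome 1 from 8061751 to 8067790 on the plus strand, with 14 exon blocks, and is 1375 kb from *METTL4*. Its 10 nearest tested neighbours had log2 fold changes between −0.19 and 0.01. Of these, AT1G22700 passed the test, at −0.19 (adjusted p = 0.00463, edgeR), and 2 had an unadjusted p under 0.05. *FKF1*, on the same chromosome, is 18820 kb from *METTL4*.

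Among all 21673 genes tested, 1.87% were lower and 0.960% higher in *mettl4-1* at an adjusted p under 0.05, against 2 and 0 of the 10 evening genes. No evening gene was higher with an unadjusted p under 0.05 in edgeR, DESeq2 or limma-voom. Without adjustment, 15.2% of all genes had a p under 0.05, and so did *PRR3* and *GI* alone among the members. Both *mettl4-1* libraries were below both Col-0 libraries in 23.0% of all genes and in 3 members, and above both in 22.8% of all genes and in 0 members. The share of members below was thus near that of all genes. At the thresholds of the study's methods, a change of at least 1.5-fold with an unadjusted p under 0.05, 1.62% of all genes and 0 members were called, and 0 members were called by DESeq2 or limma-voom. The median log2 fold change was −0.01 over the 10 evening genes and 0.0015 over all genes tested.

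**Figure D2:**
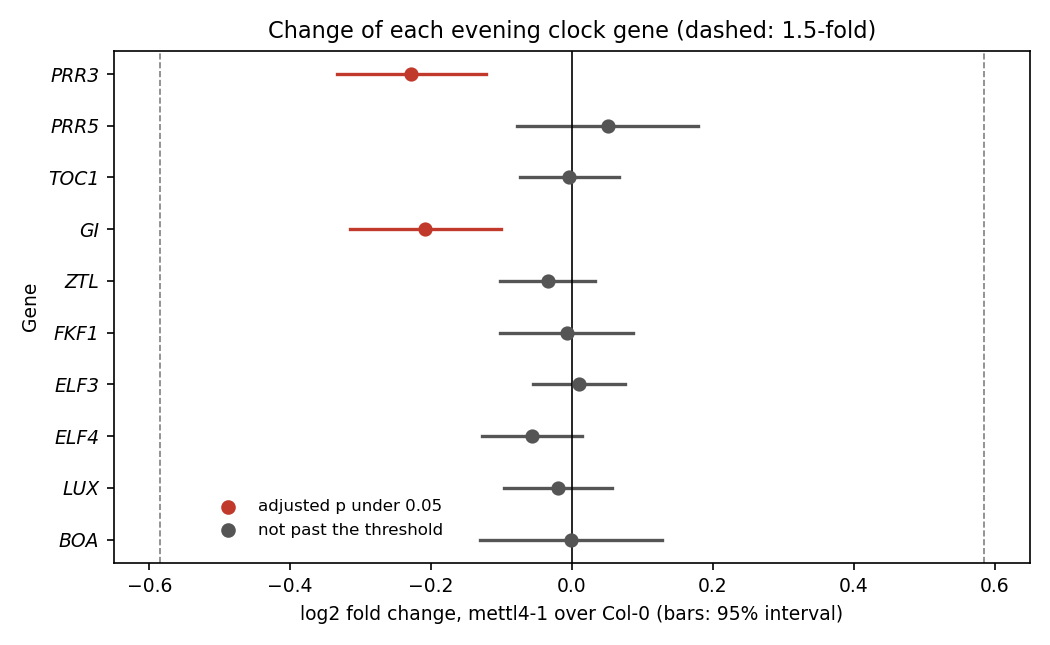
Log2 fold change of each evening clock gene, *mettl4-1* over Col-0, with its 95% interval as a bar, red where the adjusted p was under 0.05. *PRR3* and *GI* lie at −0.23 and −0.21, the other 8 intervals include 0, and no interval reaches the dashed lines at a 1.5-fold change.

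With Col-0 replicate 1 left out, the log2 fold changes were −0.21 for *PRR3* and −0.23 for *GI*, and neither passed. Without Col-0 replicate 2 they were −0.24 and −0.19, and again neither passed. Without *mettl4-1* replicate 1, the library with the most organelle and ribosomal RNA, they were −0.28 and −0.24. Without *mettl4-1* replicate 2 they were −0.17 and −0.18. The number of genes called over the whole table also moved with each omission, as given in the closing section. Passing or failing in these fits therefore does not rest on the values of *PRR3* and *GI* alone. *PRR3* passed in all 7 other alternatives run on the 4 libraries, and *GI* in 4 of them.

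**Figure D3:**
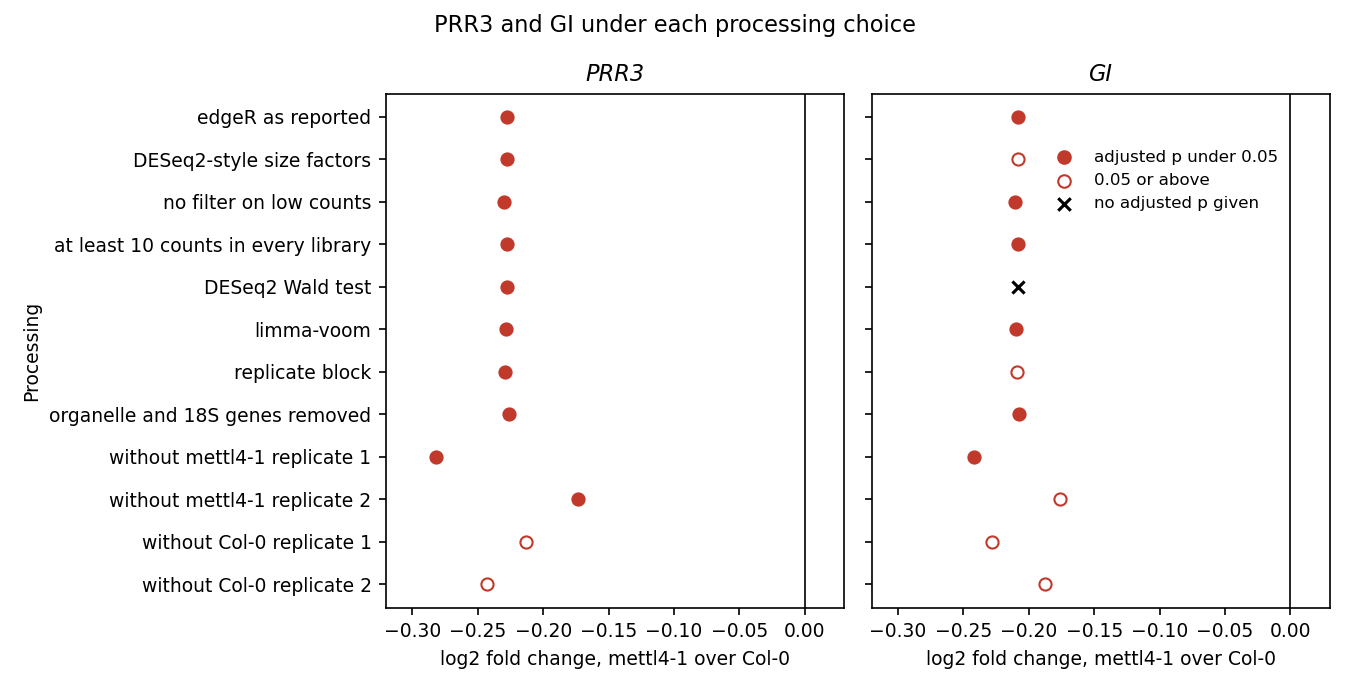
Log2 fold change of *PRR3* (left) and *GI* (right) under each processing choice, filled where the adjusted p was under 0.05, open where it was not, and a cross where DESeq2 gave none. All values are negative, from −0.28 to −0.17 for *PRR3* and from −0.24 to −0.18 for *GI*.

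Ratios of counts within a library do not depend on how the libraries were scaled. Per 100 counts of *TOC1*, its stabilized partner, *PRR3* had 18.2 and 17.1 counts in *mettl4-1*, against 20.5 and 20.7 in Col-0. Per 100 counts of *ZTL*, the protein partner of GI, *GI* had 31.5 and 31.5 counts in *mettl4-1*, against 35.1 and 35.9 in Col-0. Per 100 counts of *FKF1*, *GI* had 81.4 and 77.2 counts in *mettl4-1*, against 89.5 and 92.7 in Col-0. In each of these ratios the groups did not overlap. *TOC1*, *ZTL* and *FKF1* had mean levels of 99.7%, 97.6% and 99.5% of Col-0. The ratios therefore restate the lower levels of *PRR3* and *GI* and are no separate support for them. By CPM, both *mettl4-1* libraries lay below both Col-0 libraries in 23.0% of all genes tested. With 2 libraries against 2, an exact two-sided permutation test of a single value cannot go below p = 0.33, and so none was run.

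The other pseudo-response regulators did not pass the test, and their groups overlapped. *TOC1*, the founding member of the family and a repressor of *CCA1* and *LHY*, had 152 and 150 CPM in *mettl4-1*, against 154 and 148 CPM in Col-0. Its log2 fold change was −0.0038 (95% interval −0.07 to 0.07), an interval of −4.98% to 4.69%. *PRR5*, which represses the morning genes late in the day, had 19.8 and 18.9 CPM in *mettl4-1*, against 19.7 and 17.8 CPM in Col-0. Its Col-0 libraries differed by 0.14 on the log2 scale, the widest gap between replicates of any of the 10 genes, and its log2 fold change was 0.05 (95% interval −0.08 to 0.18). *PRR5* is a gene of 1677 annotated exon bases on chromosome 5, apart from *PRR3*, *TOC1*, *BOA* and *ZTL*, which lie between 23241320 and 24678550 of the same chromosome.

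The evening complex is made of ELF3, a scaffold, ELF4, a small protein that activates it, and the DNA-binding protein LUX or BOA. It represses *PRR9*, *PIF4* and other genes at night. *ELF3* had 129 and 127 CPM in *mettl4-1*, against 127 and 127 CPM in Col-0, with a log2 fold change of 0.01 and the narrowest interval of the 10 genes, −0.05 to 0.08. *ELF4* had 52.5 and 54.4 CPM in *mettl4-1*, against 56.4 and 54.8 CPM in Col-0. Its groups did not overlap, but the gap between them was smaller than the gap between replicates, and its log2 fold change of −0.06 did not pass (95% interval −0.13 to 0.01, adjusted p = 0.452, edgeR).

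*LUX*, listed as *PCL1* in RefSeq, had 42.9 and 43.5 CPM in *mettl4-1*, against 44.8 and 42.9 CPM in Col-0 (log2 fold change −0.02, 95% interval −0.10 to 0.06). *BOA* had 11.6 and 11.5 CPM in *mettl4-1*, against 11.7 and 11.4 CPM in Col-0, the lowest CPM of the 10 genes (95% interval −0.13 to 0.13). Within a library, *ELF4* had 40.6 and 42.8 counts per 100 counts of *ELF3* in *mettl4-1*, against 44.4 and 43.0 in Col-0, so that both mutant libraries lay below both wild-type ones. *LUX* had 33.3 and 34.3 counts per 100 counts of *ELF3* in *mettl4-1*, against 35.3 and 33.7 in Col-0, and *BOA* had 27.1 and 26.4 per 100 counts of *LUX* in *mettl4-1*, against 26.2 and 26.6 in Col-0. In the ratios of *LUX* and *BOA* the groups overlapped. On the opposite strand, AT5G59580 (*UGT76E1*) overlaps 45.9% of the exon bases of *BOA* and AT3G46650 overlaps 17.8% of those of *LUX*. The library kit keeps the strand, but the strand setting of the counting is not given in the sources used here, so part of these counts can belong to the overlapping genes.

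Neither blue-light receptor passed the test, and the groups overlapped for both. *ZTL* had 67.6 and 64.5 CPM in *mettl4-1*, against 67.5 and 67.8 CPM in Col-0 (log2 fold change −0.03, 95% interval −0.10 to 0.03). *FKF1*, which is induced late in the day and acts with GI, had 26.1 and 26.3 CPM in *mettl4-1*, against 26.4 and 26.2 CPM in Col-0 (log2 fold change −0.0073, 95% interval −0.10 to 0.09). *FKF1* shares a stretch of 496 bases at 89.3% identity with AT5G23410, *BOA* one of 1541 bases at 87.7% with *UGT76E2* and *LUX* one of 616 bases at 82.8% with AT3G46690, so some of the reads of these 3 genes could be assigned there. *PRR5*, *PRR3*, *TOC1*, *GI*, *ELF3*, *ELF4* and *ZTL* had no such match elsewhere in the nuclear genome. For the 8 evening genes that did not pass the test, adjusted p-values were 0.452 or higher, and their intervals together spanned changes of −8.61% to 13.3%.

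Other genes of the clock were taken from lists written from general knowledge, of which 52 of 53 genes were tested. Of these, 1 was higher and 3 were lower at an adjusted p under 0.05, with a median log2 fold change of 0.01. Among the 15 morning and daytime genes, *LHY*, which encodes the partner of CCA1, was higher. It had 9.24 and 8.96 CPM in *mettl4-1*, against 6.73 and 6.91 CPM in Col-0 (log2 fold change 0.42, adjusted p = 0.0131, edgeR). *PRR7*, a daytime repressor of *CCA1* and *LHY*, was lower, with 6.84 and 6.74 CPM in *mettl4-1*, against 9.11 and 8.21 CPM in Col-0 (log2 fold change −0.35, adjusted p = 0.0499, edgeR). This call was lost with DESeq2-style size factors (adjusted p = 0.0512, edgeR), with at least 10 counts in every library (0.0532) and with limma-voom (0.0557). Without Col-0 replicate 1 neither *PRR7* nor *LHY* passed, at log2 fold changes of −0.27 and 0.40. DESeq2 gave no adjusted p to *LHY* or *PRR7* (unadjusted p = 0.00149 and 0.00996). *CCA1* had 2.65 and 2.45 CPM in *mettl4-1*, against 2.42 and 2.22 CPM in Col-0, a difference that did not pass (95% interval −0.16 to 0.44).

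Among 7 genes on the output side, *PIF4* and *GRP7* were lower. *PIF4*, a growth-promoting factor that the evening complex represses, had 1.90 and 1.55 CPM in *mettl4-1*, against 2.96 and 2.75 CPM in Col-0 (log2 fold change −0.72, adjusted p = 0.0297, edgeR). *GRP7*, an RNA-binding protein under clock control, had 725 and 787 CPM in *mettl4-1*, against 888 and 851 CPM in Col-0 (log2 fold change −0.20, adjusted p = 0.0130, edgeR). Without Col-0 replicate 1 neither passed, at log2 fold changes of −0.67 for *PIF4* and −0.17 for *GRP7*. In DESeq2 *PIF4* had no adjusted p (unadjusted p = 0.00344). *PIF4* was the only gene of the 53 past the thresholds of the study's methods, a change of at least 1.5-fold together with an unadjusted p under 0.05.

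Of the 8 photoperiod genes, 0 passed in edgeR, 0 in limma-voom and 0 in DESeq2, which gave no adjusted p to any of them, and 2 had an unadjusted p under 0.05 in edgeR. *CO*, the transcription factor that GI and FKF1 release from repression, had 3.78 and 4.41 CPM in *mettl4-1*, against 4.20 and 4.58 CPM in Col-0 (log2 fold change −0.10, 95% interval −0.35 to 0.15). *FT*, the mobile flowering signal that CO activates, had 9.22 and 10.0 CPM in *mettl4-1*, against 7.60 and 8.09 CPM in Col-0. Its groups did not overlap, and its log2 fold change of 0.29 missed the threshold (95% interval 0.13 to 0.46, adjusted p = 0.0768, edgeR). *FT* passed with the organelle and 18S genes removed (0.0268) and with no filter on low counts (0.0375). It did not pass with DESeq2-style size factors (0.0778), at least 10 counts in every library (0.0805), limma-voom (0.078) or the replicate block (0.0537). With 1 library left out, its log2 fold change lay between 0.23, without *mettl4-1* replicate 2, and 0.35, without *mettl4-1* replicate 1. Of 5 tested paralogs of the evening genes, 0 passed in edgeR or limma-voom, 0 had an unadjusted p under 0.05, and DESeq2 gave none an adjusted p. *LKP2*, the closest relative of *ZTL*, had 24.9 and 25.4 CPM in *mettl4-1*, against 24.8 and 25.5 CPM in Col-0.

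**Figure D4:**
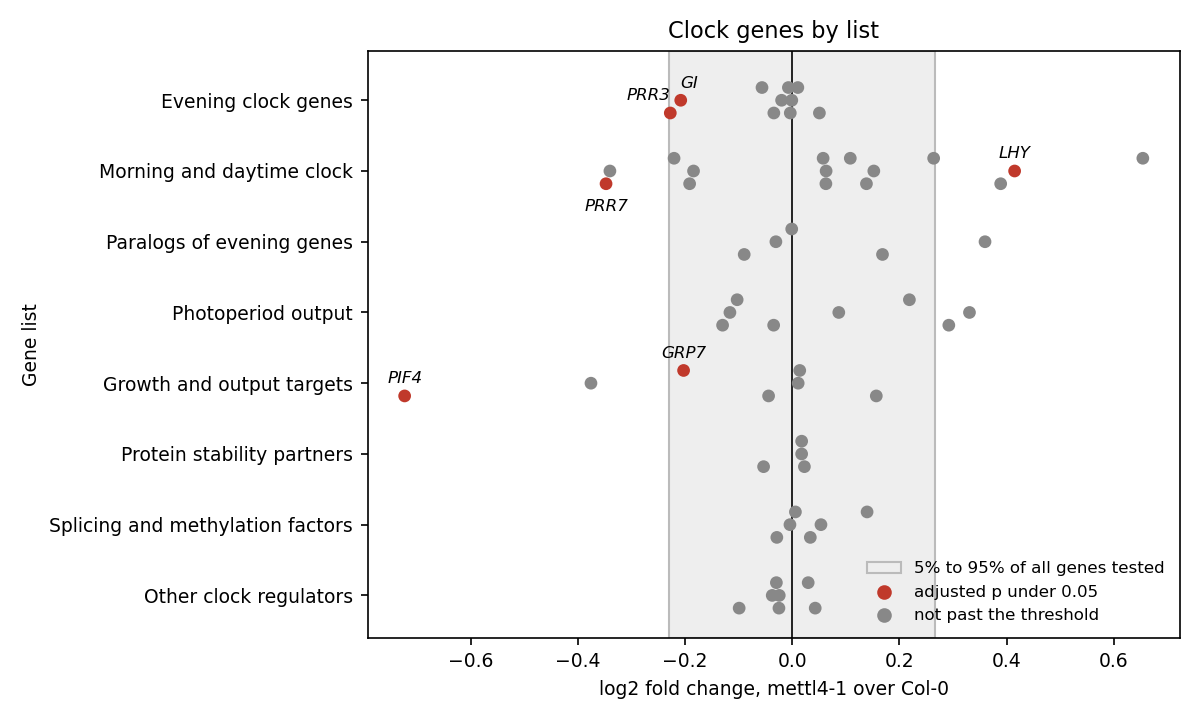
Log2 fold change, *mettl4-1* over Col-0, of each tested gene in 8 lists of clock genes, 1 point per gene, red and named where the adjusted p was under 0.05. The shaded band spans 5% to 95% of all genes tested, and *PRR3* (−0.23), *GI* (−0.21), *PRR7* (−0.35), *PIF4* (−0.72) and *GRP7* (−0.20) lie left of 0 while *LHY* (0.42) lies right of it.

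The 3 genes whose levels over the 4 libraries lay nearest to those of *PRR3*, each centred on its own mean, were AT1G06620, AT5G03120 and *CYCT1;2* (AT4G19560), out of 18213 genes with a mean of at least 100 counts. Their root mean square differences from *PRR3* were 0.0117, 0.0126 and 0.0130 on the log2 scale. None of the 3 passed the test in edgeR (adjusted p of 0.194 to 0.556). With only 4 libraries, such closeness is a description.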

How the data were processed

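RNA of 2 *mettl4-1* and 2 Col-0 seedling samples was sequenced after poly(A) selection with a strand-specific kit. The authors trimmed the reads with Cutadapt 3.5, mapped them to TAIR10 with HISAT2 2.2.1, kept those of high mapping quality with SAMtools 1.13, and deposited raw counts per gene from featureCounts 2.0.1. Neither the annotation release nor how strand, overlaps and multi-mapped reads were handled is given in the sources used here. Genotype and replicate follow the sample titles. The table labelled *mettl4-1* replicate 2 is named for another allele and for replicate 1, and its column heading repeats that of *mettl4-1* replicate 1. Its values differ, and its sample label was followed.

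Counts were analysed with edgeR 4.0.16 in R 4.3.3 (TMM, filterByExpr with a minimum of 10 counts, quasi-likelihood test, genotype as the only term) over 21673 genes, with Benjamini-Hochberg adjustment. Standard errors and intervals come from the fitted coefficient and its quasi-dispersion, not from the F statistic as planned, which gives none near 0. Alternatives used limma 3.58.1, DESeq2 1.42.0, other normalization and filters, a replicate block, removal of organelle and 18S genes, and the omission of each library. The edgeR fit, DESeq2, limma-voom and the replicate block were tested on simulated counts, and the other alternatives were not. Gene models and sequences are from RefSeq TAIR10.1, which held all 83 listed genes, and shared sequence was searched with BLAST+ 2.17.0 (megablast). Both promoter windows were chosen after matches had been seen.

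The lists of other genes were written from general knowledge, with earlier results of these data known. Named were the 10 genes, *METTL4*, *CO*, *FT*, up to 5 called genes per clock list, and the 3 genes nearest to the gene with the smallest p. Outside these rules, *CCA1*, *LKP2*, AT1G22700 and the tissue markers were chosen after their values were seen. Every gene in the lists of protein stability, splicing and methylation, and other regulators was also named, with *COP1* and *FIO1* as the ends of their range. Genes that overlap evening genes, share sequence with them or lie in their promoter windows were named from the genome.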

Additional observations from a re-analysis of the deposited data

How the results depend on the processing

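The log2 fold changes of *PRR3* and *GI* were negative in all 11 alternatives. The count of evening genes called lower was 2 in the reported fit and 1 with DESeq2-style size factors (adjusted p = 0.0508 for *GI*), with the replicate block (0.0629 for *GI*) and with DESeq2's Wald test, where *GI* had no adjusted p (unadjusted p = 0.0102), and it ranged from 0 to 2 with each library left out. No evening gene was called higher, or at 1.5-fold or 2-fold, in any of them. Same-numbered deviations of the replicates correlated at −0.0388 over nuclear genes. With 1 such deviation per genotype, this cannot show whether the replicate numbers pair the libraries. The replicate block gave 684 genes called over the whole table against 614. That count was 930 with no filter on low counts, 384 with DESeq2, 923 without organelle and 18S genes, and 342 to 1806 with each library left out. Differences with no call changed sign in *BOA* (0.00029 with limma-voom, 0.00079 without organelle and 18S genes, −0.0216 to 0.0184 with each library left out), and with each library left out in *TOC1* (−0.0286 to 0.0214), *LUX* (−0.0509 to 0.0102), *ELF3* (−0.0015 to 0.0224) and *PRR5* (−0.0222 to 0.122). The cause of these shifts was not tested. With 1 library left out, 1 residual degree of freedom remained and the lone library was assumed to vary like the other genotype.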

Other observations

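Another 17 listed genes have known roles in the stability of evening proteins, in the splicing of clock transcripts or as other regulators of the clock. Of the 4 partners in protein stability (*SKP1*, *CUL1*, *UBP12* and *UBP13*), the 6 factors of splicing and methylation (*PRMT5*, *SKIP*, *STIPL1*, *LSM5*, *LSM4* and *FIO1*) and the 7 other regulators (*TIC*, *LWD1*, *LWD2*, *XCT*, *COP1*, *PHYA* and *PHYB*), 0 passed in edgeR, limma-voom or DESeq2, and only *COP1* had an unadjusted p under 0.05 in edgeR. Their log2 fold changes lay between −0.10, for *COP1*, and 0.14, for *FIO1*, which encodes the U6 snRNA methyltransferase. Of these 17 genes, 11 had an adjusted p in DESeq2. Splicing itself cannot be read from counts per gene.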
